A study of Mus musculus with 24 samples.

Results

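The probe sets described here are those that an Affymetrix mouse array assigns to the gene segments of the immunoglobulin loci. A probe set was taken when at least 1 of its annotated symbols began with Igh, Igk or Igl followed by v, j, d, c, m, a, g or e (Ighmbp2 left out), and probe sets with several genes were kept. The rule took 71 of 12422 probe sets, of which 59 carry 1 symbol and 12 carry several. Together they name 34 distinct segments, made up of 27 variable (V) segments, 1 joining (J) segment and 6 constant (C) regions.

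B cells and plasma cells assemble each antibody chain gene by joining 1 V segment to a J segment (with a D segment in between in the heavy chain), and splice the result to a constant region. The heavy chain comes from Igh on chromosome 12, and the light chain from Igk on chromosome 6 or Igl on chromosome 16, as RefSeq places them in the GRCm38.p6 assembly. Resting mature B cells carry IgM and IgD, encoded with Ighm and Ighd, and switch on activation to downstream constant regions such as Ighg3 (IgG3) and Igha (IgA). T cells and NK cells do not assemble functional antibody genes, so antibody RNA in a sorted leukocyte population is generally read as a sign of B lineage cells. B lymphocytes are a known component of the islet infiltrate of NOD mice, where they can present antigen to T cells.

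The study compared 24 arrays in 10 groups, 5 cell populations on 2 genetic backgrounds. The mice with insulitis were transgenic for BDC2.5, a T cell receptor of CD4+ cells that recognises an islet antigen, on either C57Bl/6-H2g7/g7 (called B6g7), where insulitis is aggressive, or NOD, where it stays benign. The total pancreatic infiltrate was sorted as viable CD45+ leukocytes (3 arrays from B6g7 mice of 25, 28 and 24 days and 3 from NOD mice of 25 days). CD4+ T cells with a high level of the transgenic receptor were sorted from the pancreas (B6g7 at 25 and 22 days, 2 arrays; NOD at 24, 24 and 25 days, 3 arrays) and from the pancreatic lymph node (B6g7 at 25 and 22 days, 2 arrays; NOD at 24, 22 and 25 days, 3 arrays). Splenic NK cells were sorted as Asialo GM1+ CD45+ cells, with 2 arrays from B6g7 mice without the transgene, at 6 and 3 weeks, and 2 from NOD mice whose age is not given, the second of them described with BDC2.5. CD45+ splenic leukocytes (2 arrays per background), whose age and transgene status their labels do not give, served as a reference. Nothing in the labels ties an array to its own animal, and p-values therefore reflect the variation among arrays, which may be technical.

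Values are the deposited intensities on the log2 scale, where a difference of 1 is a doubling. Median intensity per array lay between 35.1 and 39.1. RNA was amplified in 1 round for spleen and in 2 rounds for the other populations (the label of B6g7 infiltrate array 3 gives no protocol), and the Gapdh 3′ probe set stood above the 5′ one by a group mean of 0.22 to 0.33 in spleen against 2.96 to 5.13 elsewhere. Albumin RNA, a liver and not a leukocyte transcript, was over a log2 level of 6 in 6 arrays, which were infiltrate arrays 1 and 2 from B6g7 and array 1 of each of the 4 T cell groups. Cd3g was at 7.63 to 9.10 in spleen and, in the T cell arrays, at 8.94 to 10.56, and Klrd1, an NK receptor subunit, was at 8.87 to 9.93 in the NK arrays against 4.33 to 5.86 in T cells. A comparison was called where limma's moderated test, fitted over all 12422 probe sets and all groups, gave a Benjamini-Hochberg adjusted p under 0.05, and such a probe set is said to have passed. Because a probe set's level depends on its probes, levels are compared between arrays and not between probe sets.

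The 71 probe sets fall into classes by their annotation. The heavy chain has 16 probe sets for Ighm, 7 for Ighg3, 3 for Igha, 1 for Ighd, 1 with several constant regions, 6 for variable segments and 2 with variable and constant regions together. The kappa chain has 28 for variable segments and 5 with Igkc, the kappa constant region, among their genes, and the lambda chain has 2. Suffix f, which marks probe sets that can read a family of like sequences, is carried by 32 of them. The annotation does not say whether a probe set reads the variable or the constant part of a rearranged transcript.

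**Figure D1:**
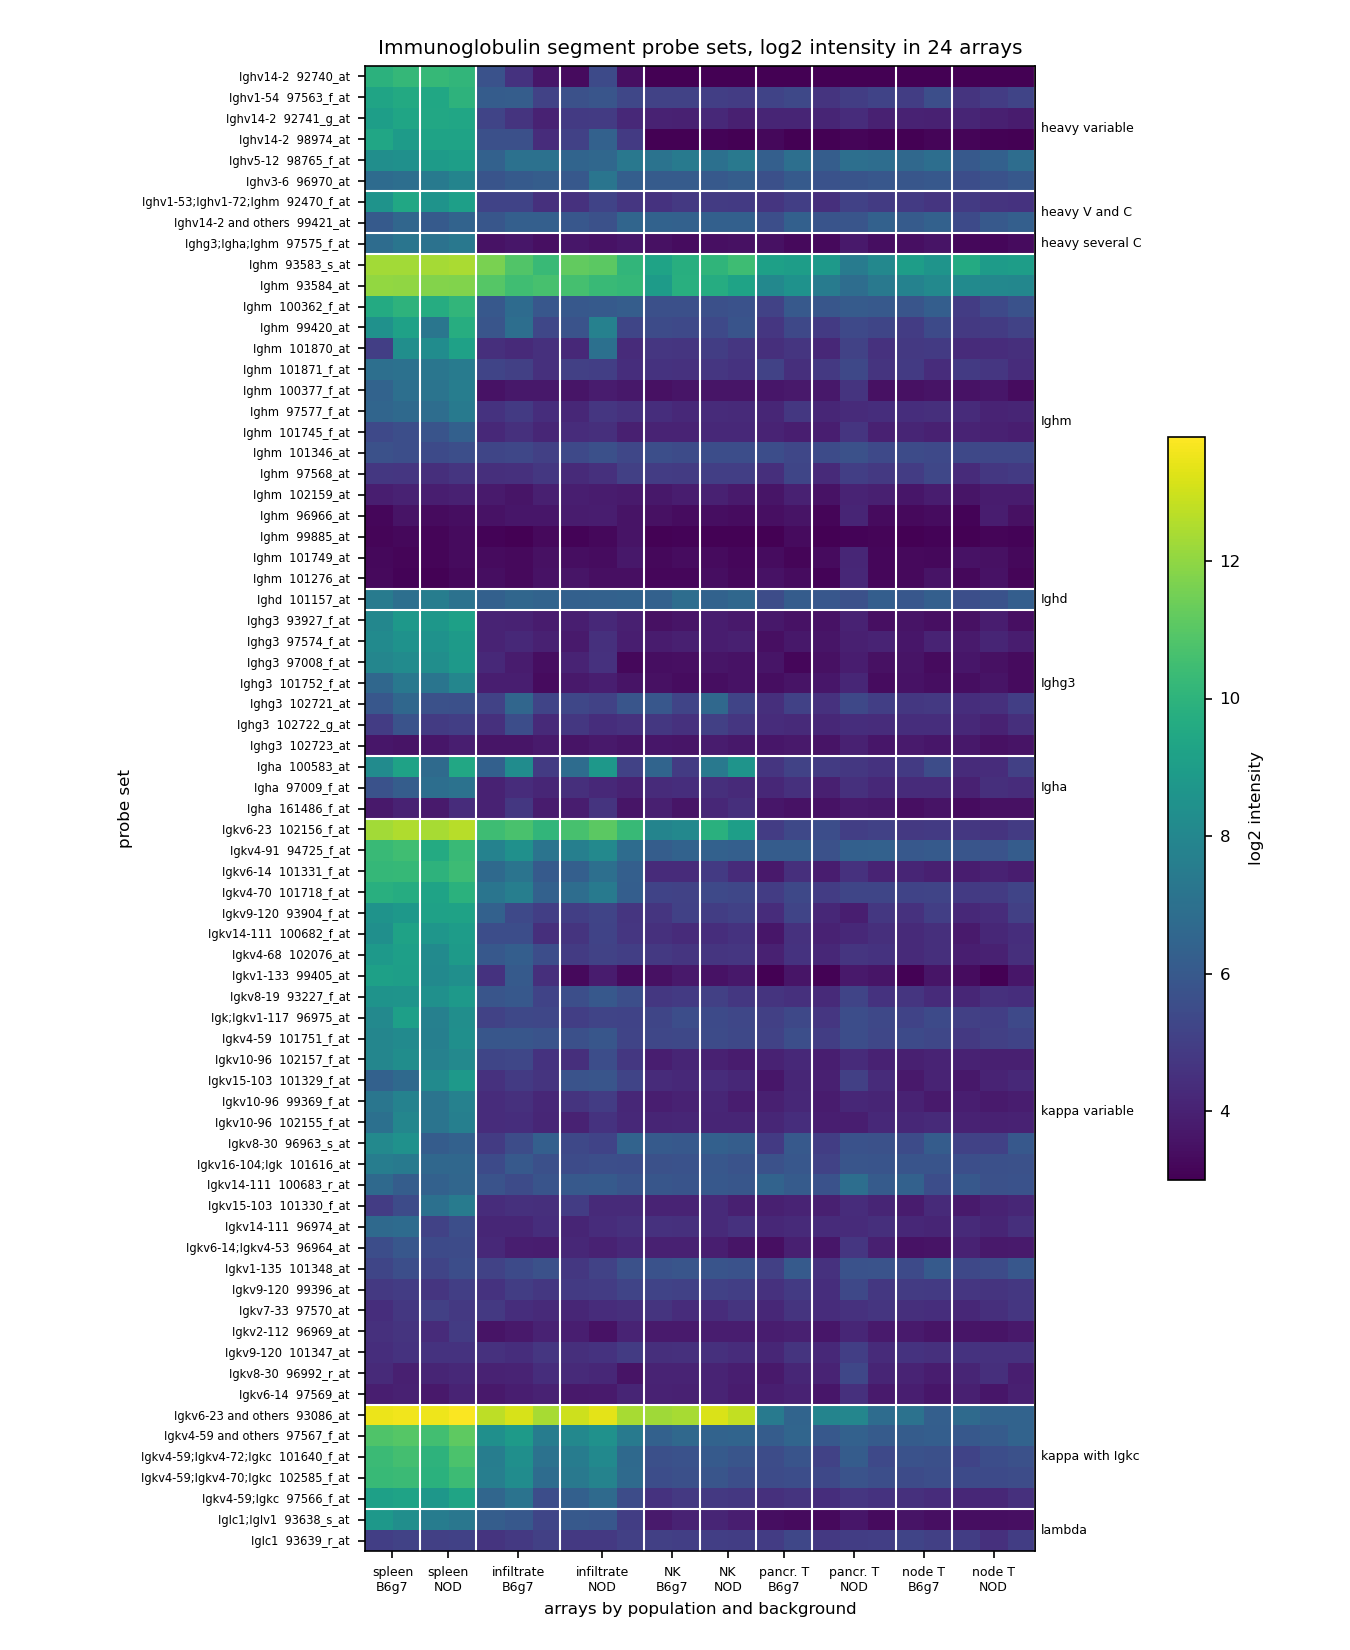
Log2 intensity (colour, with levels under 3 drawn as 3) of the 71 immunoglobulin segment probe sets (rows, grouped by class) in the 24 arrays (columns, grouped by population and background). The 4 spleen columns are the brightest for most rows, the infiltrates keep a few bright rows, and in 20 rows not every spleen array exceeds every T cell array.

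In spleen, where B cells are a large part of the leukocytes, antibody transcripts were high for most classes. Every spleen array exceeded all 10 T cell arrays for 51 of the 71 probe sets, a pattern seen for 7.74% of all probe sets. Spleen and T cells also differ in amplification rounds and in the Gapdh 3′ to 5′ difference, which cannot be told apart from the population. By class, the median spleen level lay 4.87 above the T cells for heavy variable segments, 4.82 for the kappa probe sets with Igkc, 3.78 for Ighg3, 2.89 for kappa variable segments, 2.32 for lambda and 2.03 for Ighm. Variable probe sets were picked for naming by their spleen mean, which depends on the probes and does not order the segments by abundance. At the upper end these were Igkv6-23 (102156_f_at) at 12.46, Igkv4-91 (94725_f_at) at 10.20, Igkv6-14 (101331_f_at) at 10.20, Ighv14-2 (92740_at) at 10.13 and Igkv4-70 (101718_f_at) at 9.67.

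The kappa probe set 93086_at, annotated with Igkv6-23, Igkv4-53, Igkv8-30, Igkj1 and Igkc, was at 13.49 and 13.58 in B6g7 spleen and at 13.53 and 13.73 in NOD spleen. It held the highest intensity of the whole table, 13565.9, in NOD spleen array 2, and whether its readings were near the scanner's ceiling was not tested. In T cells the same probe set was at 6.27 to 7.95.

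For the other 20 probe sets not every spleen array exceeded every T cell array. They include 8 for Ighm and 8 for kappa variable segments, and 16 of the 20 varied by under 1.5 over all 24 arrays. Among the others, Igkv8-30 (96963_s_at) and Ighm 101870_at were above the T cells in some spleen arrays. Picked in the same way at the lower end were Igkv6-14 (97569_at) at 3.93, Igkv8-30 (96992_r_at) at 4.15, Igkv9-120 (101347_at) at 4.53, Igkv2-112 (96969_at) at 4.58 and Igkv7-33 (97570_at) at 4.75. Of these 5, Igkv2-112 alone was above every T cell array in spleen. Igkv6-14 shows how 2 probe sets of 1 segment can part, since 101331_f_at was at 9.97 to 10.41 in the same 4 spleen arrays. Of the probe sets with suffix f, 31 of 32 had every spleen array above the T cells, against 16 of 31 without a suffix letter.

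The infiltrates carried antibody RNA, at a lower level than spleen. Every infiltrate array exceeded all T cell arrays for 17 of the 71 probe sets (2.68% of all probe sets did so), and each of those 17 was also above T cells in spleen. They were all 5 kappa probe sets with Igkc, 6 of the 28 kappa variable ones, 2 for Ighm, 2 for Ighv14-2, the Ighd probe set and 1 of the lambda probe sets. Fewer B cells and less antibody RNA per B cell cannot be told apart in these bulk samples.

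**Figure D2:**
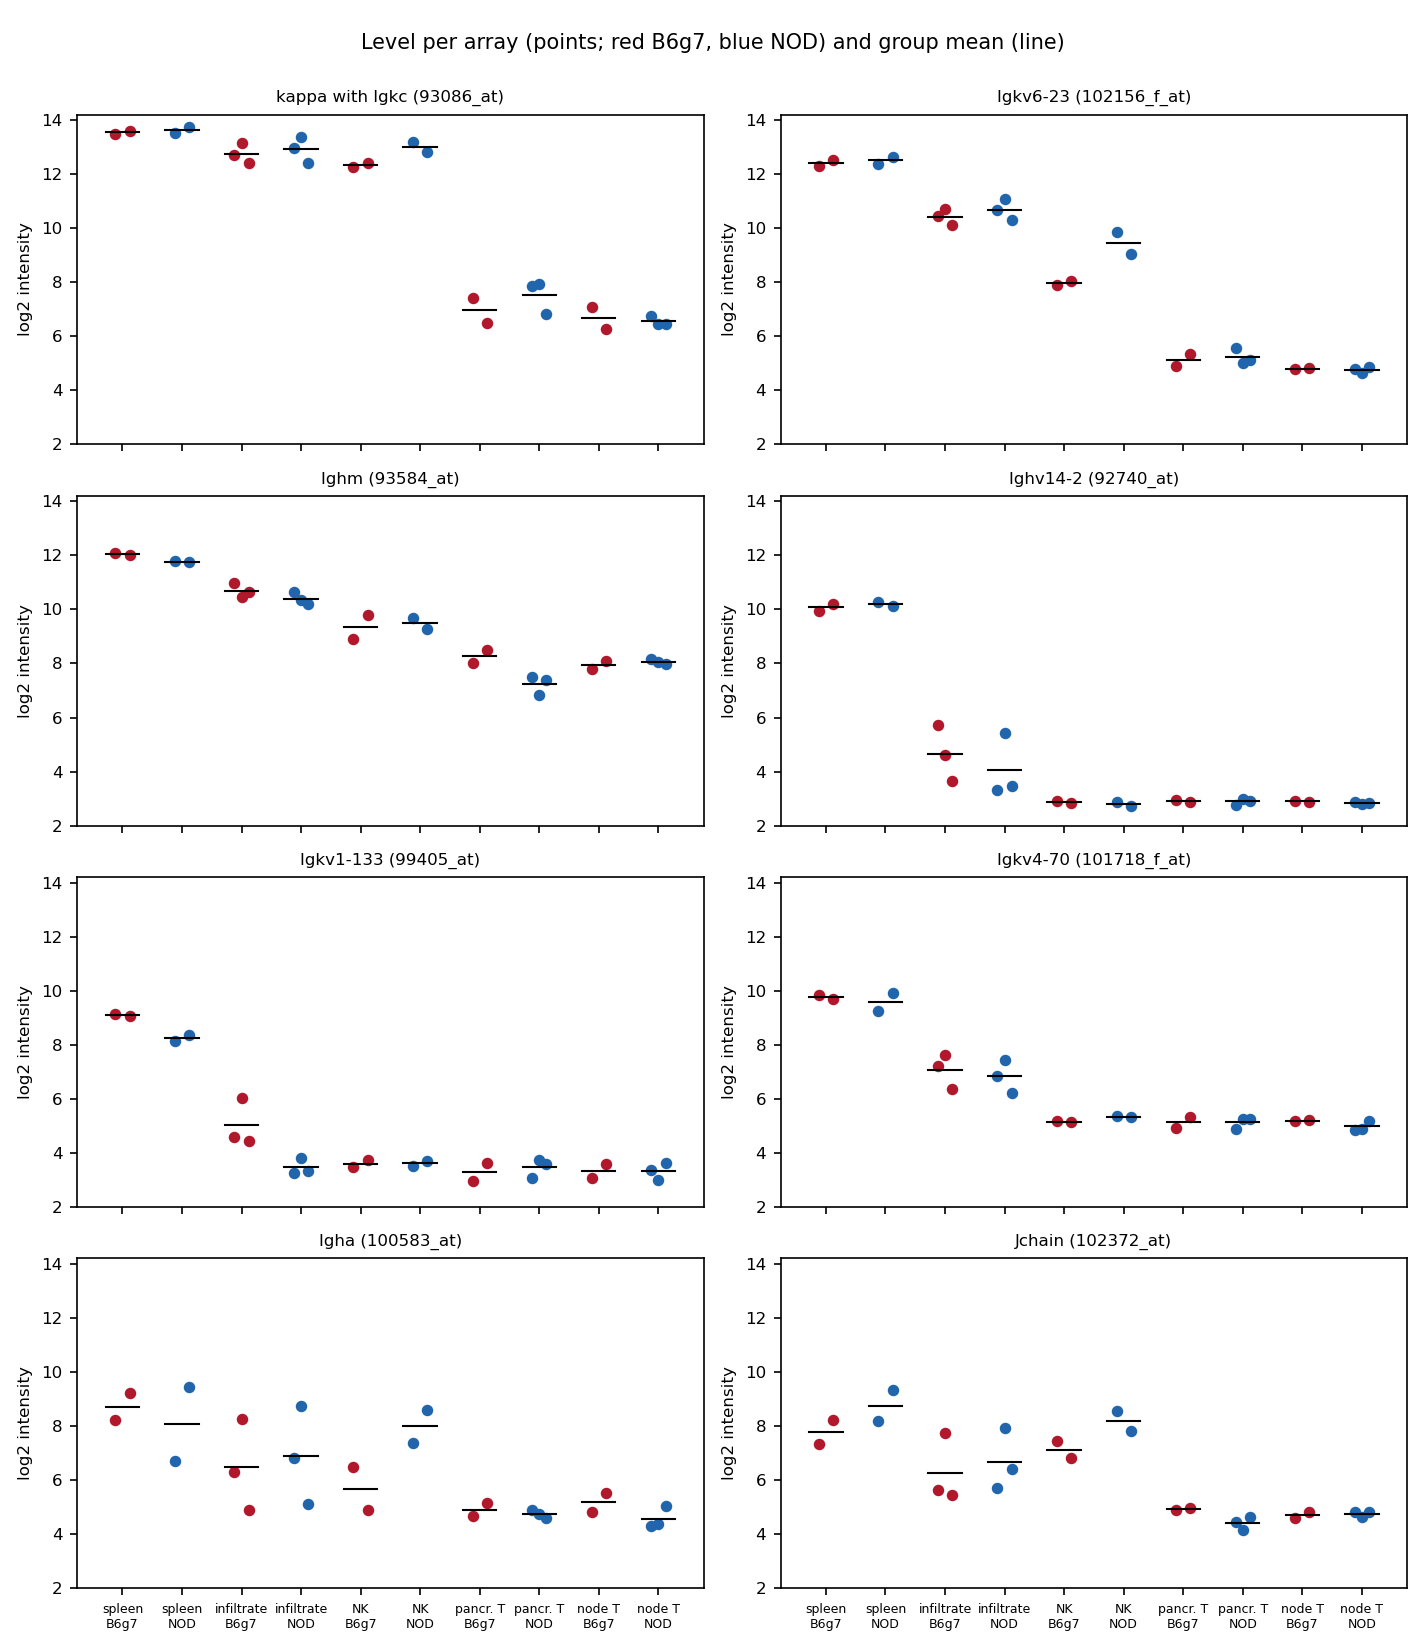
Log2 intensity per array (points, red B6g7 and blue NOD) and group mean (lines) for 7 immunoglobulin probe sets and Jchain in the 10 groups. The kappa probe set with Igkc stays above 12 in spleen, infiltrate and NK arrays, whereas Ighv14-2 and Igkv1-133 fall towards the T cell level, and among the infiltrate arrays Igha and Jchain are highest in array 2 of both backgrounds.

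The comparison of infiltrate with spleen shows how antibody RNA at the site of insulitis differs from that of a lymphoid organ. In B6g7, 46 of the 71 probe sets fell in the infiltrate and none rose, 64.8% of the members against 7.58% of all probe sets, with a median difference of -2.07 (0.01 over all probe sets). In NOD, 48 fell and none rose, 67.6% against 9.12%, with a median of -2.23 (0.06). The falls were shared for 45 probe sets, 97.8% of the B6g7 list and 93.8% of the NOD list. Spleen and infiltrate also differ in amplification rounds and in the Gapdh 3′ to 5′ difference given above, and these cannot be told apart from the tissue. The same holds for runs of array serial codes, since all spleen arrays were in run 7 and the infiltrate arrays in runs 2, 3 and 4. These runs were formed here from gaps between the codes, with 20 as the limit.

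Among variable segments of the heavy chain, Ighv14-2 fell most. Its probe set 92740_at was at 9.95 and 10.21 in B6g7 spleen and at 5.71, 4.60 and 3.66 in the infiltrate, a difference of -5.42 ± 0.50 (SE; limma adjusted p = 1.28e-06). In NOD it was at 10.25 and 10.12 in spleen and at 3.33, 5.41 and 3.46 in the infiltrate (-6.12 ± 0.50, limma adjusted p = 2.42e-07). No infiltrate array reached a spleen array, and on the linear scale the falls were 42.9-fold and 69.4-fold. The other Ighv14-2 probe sets fell as well, by 4.57 (92741_g_at) and 3.93 (98974_at) in B6g7 and by 4.78 and 3.84 in NOD. T cells read 2.78 to 3.00 with 92740_at, and the infiltrate mean stayed above them at 4.66 ± 1.03 (SD, n = 3) in B6g7 and 4.07 ± 1.17 (SD, n = 3) in NOD.

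Of the switched constant regions, Ighg3 had 4 of 7 probe sets that fell in each background. All 4 carry suffix f, and the others did not pass. Their B6g7 and NOD means were 5.64 and 5.43 in the infiltrate against 6.28 and 5.65 in spleen for 102721_at. For 102722_g_at they were 4.78 and 4.56 against 5.34 and 4.95, and for 102723_at 3.66 and 3.64 against 3.61 and 3.79. The probe set 93927_f_at was at 8.01 and 8.75 in B6g7 spleen, 8.74 and 9.15 in NOD spleen, 4.06, 4.02 and 3.83 in the B6g7 infiltrate and 3.91, 4.26 and 3.93 in the NOD infiltrate. The falls were 4.41 (limma adjusted p = 6.98e-10) and 4.91 (limma adjusted p = 1.69e-10), or 21.3-fold and 30.0-fold. A pair of further probe sets had falls of 4.26 and 4.66 for 97008_f_at and 4.22 and 4.62 for 97574_f_at. The probe set annotated with Ighg3, Igha and Ighm together (97575_f_at) was at 6.81 to 7.32 in spleen and 3.43 to 3.67 in the infiltrates, a fall of 3.47 in B6g7 and 3.57 in NOD. For these probe sets the infiltrates read at or near the T cell level. The infiltrate mean was at or under the highest T cell array for 21 of the 46 probe sets that fell in B6g7 and for 21 of the 48 in NOD. The probe set 93927_f_at was among them in both. For such probe sets the T cell level limits how far a reading could fall, and amplification differed as well. The size of their falls and folds is therefore not settled.

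Ighm is the constant region of IgM. Its probe set 93584_at was at 12.07 and 12.02 in B6g7 spleen, 11.80 and 11.74 in NOD spleen, 10.97, 10.47 and 10.64 in the B6g7 infiltrate and 10.63, 10.33 and 10.20 in the NOD infiltrate. The groups did not overlap, and the differences were -1.35 ± 0.25 (SE; limma adjusted p = 0.00216) and -1.38 (limma adjusted p = 0.00156), 2.55-fold and 2.61-fold. Another Ighm probe set, 93583_s_at, fell too, with differences of -1.36 (limma adjusted p = 0.0448) and -1.57 (limma adjusted p = 0.0187). That B6g7 call was lost when any 1 of infiltrate arrays 2 and 3 or spleen arrays 1 and 2 was left out (adjusted p 0.108, 0.179, 0.218 and 0.234), and the NOD call without infiltrate array 3 or either spleen array (0.0794, 0.131 and 0.137). Where leaving out an array leaves 1 in a group, here and below, that array is assumed to vary like those of the other groups. In all, 8 of 16 Ighm probe sets fell in B6g7 and 9 in NOD. Ighm 100362_f_at, at 9.62 to 10.11 in spleen and 5.95 to 6.78 in the infiltrates, shows that probe sets annotated to 1 constant region differed in how far their readings fell. Its infiltrate means were under the highest T cell array (6.24), so the size of its fall is not settled either.

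Ighd, the constant region of IgD, was at 7.49 and 6.94 in B6g7 spleen and 7.56 and 7.08 in NOD spleen, against 6.30 to 6.58 in the 6 infiltrate arrays. The difference was -0.78 in B6g7 (limma adjusted p = 0.0701, not passed) and -0.97 in NOD (limma adjusted p = 0.0212), and the NOD call was lost without infiltrate array 1 (0.0594) or spleen array 1 (0.313). Igha had 1 of 3 probe sets that fell, 97009_f_at, by 1.76 in B6g7 and 2.74 in NOD. Its probe set 100583_at, differed by -2.24 (limma adjusted p = 0.205) and -1.19 (limma adjusted p = 0.536) with overlapping arrays, and the third, 161486_f_at, lay between 3.35 and 4.77 in all arrays.

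Light chain probe sets fell in most cases. Kappa variable segments fell in 21 of 28 probe sets in B6g7 and 20 in NOD, with Igkv1-133 (99405_at) falling by 4.07 and 4.78. The 4 other probe sets with Igkc fell, with differences of -2.61 to -2.79 in B6g7 and -2.83 to -2.90 in NOD. The fifth of that class, 93086_at, was at 12.71, 13.14 and 12.40 in the B6g7 infiltrate and 12.98, 13.37 and 12.40 in the NOD infiltrate, under every spleen array, and its differences did not pass (-0.79 ± 0.36 (SE), limma adjusted p = 0.228, and -0.71, limma adjusted p = 0.260). Igkv6-23 (102156_f_at) fell by 1.98 (limma adjusted p = 7.42e-05) and 1.83 (limma adjusted p = 1.56e-04), 3.96-fold and 3.57-fold. The lambda probe set for Iglc1 and Iglv1 (93638_s_at) was at 8.74 and 8.34 in B6g7 spleen, 7.54 and 7.28 in NOD spleen and 4.95 to 6.18 in the infiltrates, a fall of 2.74 and 1.78. The other lambda probe set, Iglc1 93639_r_at, stayed between 4.52 and 5.28 in all arrays.

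**Figure D3:**
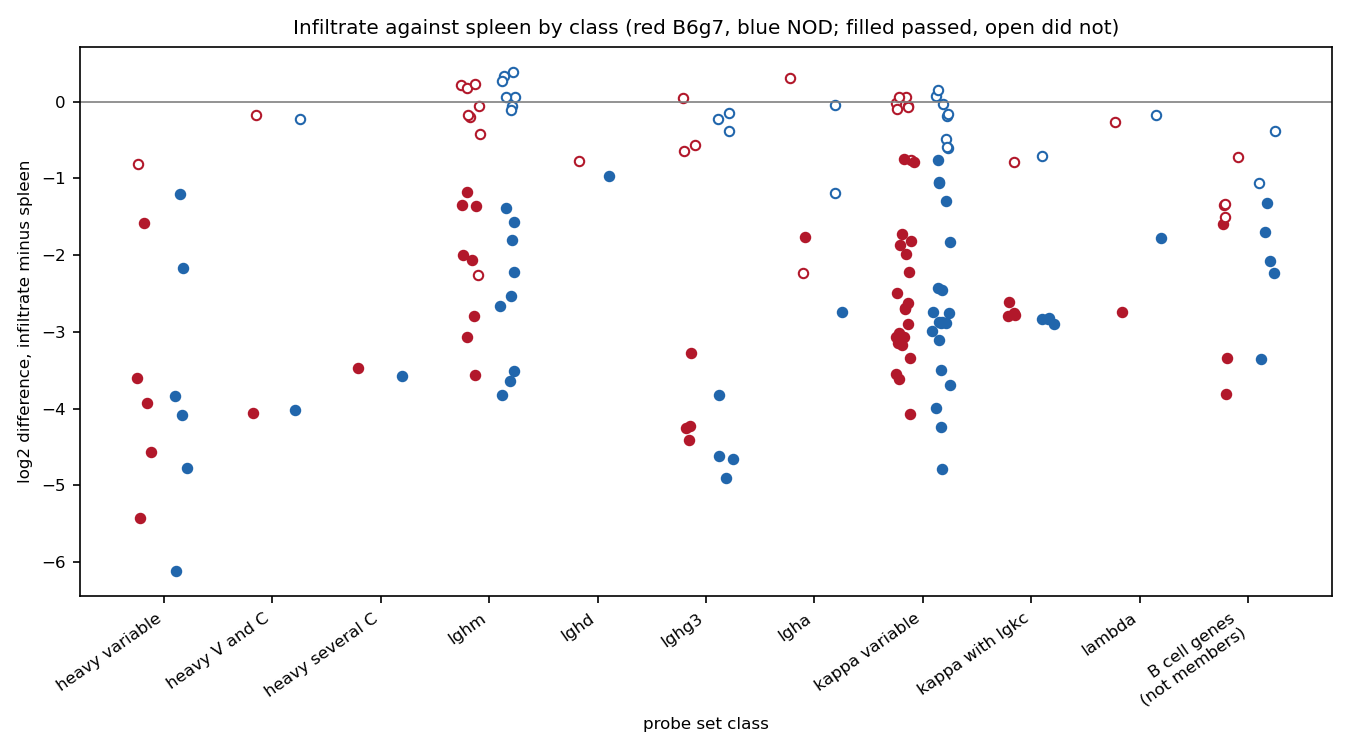
Log2 difference of infiltrate against spleen (vertical axis) for each of the 71 probe sets by class, red for B6g7 and blue for NOD, filled where limma's adjusted p was under 0.05. Filled points all lie below 0, reaching -5.42 and -6.12 for Ighv14-2, and the last column gives B cell genes that are not immunoglobulin segments.

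Other B cell genes fell too. Cd79a, a signalling chain of the B cell receptor, fell by 3.81 in B6g7 and 3.35 in NOD, while its partner Cd79b fell by 1.35 and 1.32. Pax5, the factor that maintains B cell identity, fell by 1.60 and 1.70, and Ms4a1 (CD20) fell by 1.34 in both with 99446_at but not with 104173_at (-0.72 and -0.39, not passed). Of 22 measured B cell surface and receptor genes, each read by 1 probe set, 15 fell in B6g7 and 12 in NOD and none rose. Among all probe sets, 7.58% passed in B6g7 and 9.12% in NOD. Of 16 transcription factors of B cells and of the immunoglobulin loci, each read by 1 probe set, none rose. In B6g7 5 fell (Pax5, Ebf1, Pou2f2, Spib and Spi1) and in NOD 4 (the same without Spi1). Probe sets outside that count also passed for Ikzf1 (102293_at, -0.90 in B6g7 and -0.85 in NOD) and, in NOD, for Ets1 (94720_at, -1.07). Ebf1, which specifies the B lineage, fell by 2.19 and 1.82, and Pou2f2, an octamer factor of immunoglobulin promoters, by 1.71 and 1.26.

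Of 17 measured genes of antibody secretion, 1 rose (Creld2) and none fell in B6g7, and 1 rose (Prdm1) and 2 fell (Jchain and Fkbp11) in NOD. Beside this list and those below stand the 7.58% (B6g7) and 9.12% (NOD) of all probe sets that passed. Jchain, which links IgM and IgA polymers, differed by -1.50 in B6g7 (limma adjusted p = 0.170) and fell by 2.07 in NOD (limma adjusted p = 0.0426). Prdm1, the plasma cell factor that T cells also express, differed by 0.64 in B6g7 (limma adjusted p = 0.094) and rose by 0.78 in NOD (limma adjusted p = 0.0352). Xbp1, a factor of the secretory program, differed by 0.07 and -0.47 and Sdc1 (CD138) by 0.22 and -0.20, none of which passed, and Pou2af1, the coactivator of octamer sites in immunoglobulin promoters, by -1.34 (limma adjusted p = 0.18) and -1.06 (0.286). The surrogate light chain gene Igll1, a marker of B cell precursors, differed by -0.29 and 0.10 and did not pass, while Vpreb3 (93957_at) fell by 3.34 and 2.23. Vpreb3 was the 1 of 13 recombination, switching and surrogate light chain genes that fell, and Dntt, the template-free polymerase of V(D)J joining, was the 1 that rose, by 1.04 (161409_f_at) in B6g7. Of 8 measured Fc receptors, which bind antibody on leukocytes, Fcer2a fell by 1.54 and 1.36 and Fcgr1, found on macrophages, rose by 1.25 and 1.22. In NOD, Fcgr2b fell by 1.72 and Fcer1g rose by 1.02.

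Set against T cells sorted from the same organ, the total infiltrate, which was not gated on T cells, had more antibody RNA. In B6g7, 16 probe sets rose and none fell, 22.5% of the members against 2.71% of all probe sets, with a median of 0.32 (-0.03 over all probe sets). In NOD, 15 rose and none fell, 21.1% against 3.23%, with a median of 0.26 (-0.00). The rises were shared for 14 probe sets, 87.5% of the B6g7 list and 93.3% of the NOD list. These comparisons use the same infiltrate arrays as those with spleen.

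Kappa light chain led the rises. The probe set 93086_at was at 7.42 and 6.48 in B6g7 pancreatic T cells and 7.86, 7.95 and 6.81 in NOD ones, so the infiltrates exceeded them by 5.80 ± 0.36 (SE; limma adjusted p = 2.99e-08) and 5.38 ± 0.32 (SE; limma adjusted p = 8.3e-09), 55.7-fold and 41.6-fold. Igkv6-23 (102156_f_at) was at 10.46, 10.69 and 10.11 in the B6g7 infiltrate and 10.66, 11.08 and 10.29 in the NOD infiltrate, against 4.90 and 5.36 and 5.55, 5.02 and 5.10 in the T cells. It rose by 5.29 (limma adjusted p = 2.19e-09) and 5.45 (limma adjusted p = 1.07e-10), with every infiltrate array far above every T cell array. The 4 other probe sets with Igkc rose by 1.83 to 2.04 in B6g7 and 1.62 to 1.92 in NOD.

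Ighm rose by less than the kappa probe sets 93086_at and 102156_f_at. Ighm 93584_at was at 8.03 and 8.50 in B6g7 pancreatic T cells and 7.49, 6.85 and 7.38 in NOD ones, and the infiltrate was higher by 2.43 and 3.15, or 5.39-fold and 8.86-fold. Ighm 93583_s_at rose by 1.88 (limma adjusted p = 0.0116) and 2.70 (limma adjusted p = 1.24e-04), where the NOD call was lost with only the compared groups fitted (0.0544) and the B6g7 call was lost without infiltrate array 1 (0.0646) or pancreatic T cell array 1 (0.130) or 2 (0.0771). Ighv14-2 rose with 98974_at by 2.10 and 2.36. Those calls were lost with only the compared groups fitted (adjusted p = 0.0790 and 0.0685), and the B6g7 one without the infiltrate arrays with albumin RNA (1.26, adjusted p = 0.240) or without all arrays with it (1.38, 0.550). Its probe set 92740_at differed by 1.75 (limma adjusted p = 0.0808) and 1.17 (0.213). The lambda probe set 93638_s_at rose by 2.45 and 2.22 and Igkv6-14 (101331_f_at) by 2.55 and 2.33, where the B6g7 call was lost without all arrays with albumin RNA (1.60, adjusted p = 0.0906).

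In B6g7, where 1 of the 2 pancreatic T cell arrays carried albumin RNA, the count of calls depended on single arrays. The count of rises was 8 without pancreatic T cell array 1 and 19 without infiltrate array 3. It was 5 without the infiltrate arrays with albumin RNA and 4 without all such arrays. With only the compared groups fitted, 5 passed in each background.

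Of the B cell surface and receptor genes, 17 of 22 rose over pancreatic T cells in B6g7 and 18 in NOD, and none fell. Among all probe sets, 2.71% and 3.23% passed there. Cd79b rose by 4.26 and 3.92 and Ms4a1 by 2.77 and 3.19, while Cd79a differed by 0.67 and 0.63 and did not pass. Pou2af1 rose by 2.73 in B6g7 (limma adjusted p = 0.00938) and differed by 1.09 in NOD, and Jchain differed by 1.35 in B6g7 (0.353) and rose by 2.26 in NOD (limma adjusted p = 0.0283). The mean log2 level of the 22 surface and receptor genes was 8.69 to 9.13 in spleen, 7.27 to 7.92 in the infiltrates, 6.29 to 6.84 in NK cells and 5.31 to 5.61 in T cells.

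**Figure D4:**
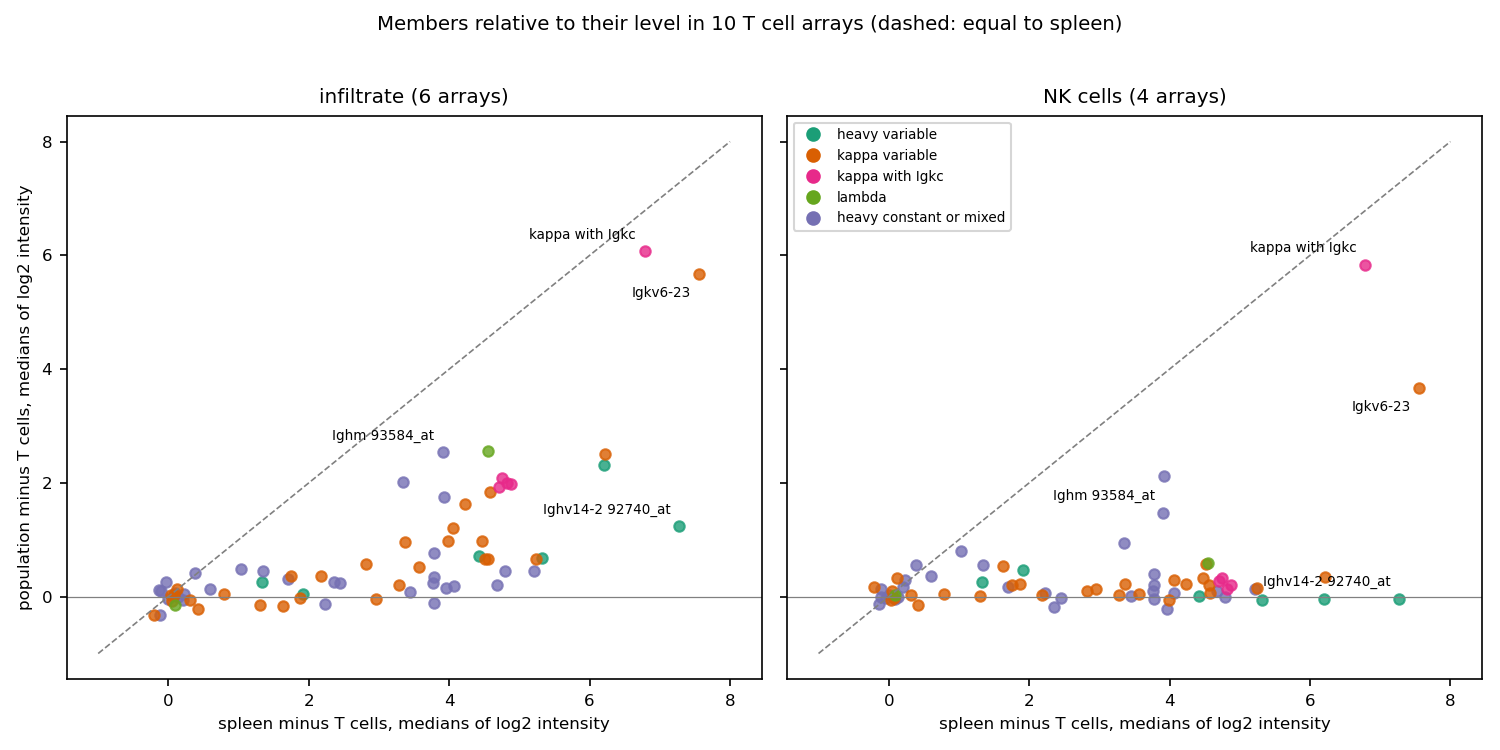
Median log2 level of each probe set over its median in the 10 T cell arrays, in spleen (horizontal) against infiltrate (left panel, vertical) and NK cells (right panel, vertical), coloured by class. Most points lie well under the dashed line of equal level, and the kappa probe set 93086_at lies nearest to it among those far above T cells in both panels.

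The excess over T cells was smaller in the infiltrate than in spleen in each class named here. For heavy variable segments the median over T cells was 4.87 in spleen and 0.69 in the infiltrate, and for Ighg3 3.78 and 0.34. For the kappa probe sets with Igkc it was 4.82 and 2.01, for kappa variable segments 2.89 and 0.36, for lambda 2.32 and 1.20 and for Ighm 2.03 and 0.13. These medians include the probe sets without separation in spleen (8 of 16 for Ighm, 8 of 28 for kappa variable segments, 1 of 7 for Ighg3 and 1 of 2 for lambda), and no test was made between classes. Spleen differs from the T cells in amplification rounds, whereas the infiltrate was amplified like them. The 2 excesses are therefore not like measures.

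NK arrays also read antibody RNA above T cells, by a clear margin for few probe sets. Every NK array exceeded all T cell arrays for 7 probe sets, 9.86% of the members against 4.46% of all probe sets. These were 93086_at, Igkv6-23 (102156_f_at), Ighm 93584_at, Ighd, the lambda probe set 93638_s_at, Ighg3 102722_g_at and Ighv5-12 (98765_f_at). The kappa probe set 93086_at was at 12.27 and 12.40 in B6g7 NK cells and 13.17 and 12.82 in NOD NK cells, within the range of the infiltrates or just under it. Heavy variable segments had a class median of -0.02 over T cells, and Ighv14-2 (92740_at) was at 2.74 to 2.90. Some B cell genes were higher in NK arrays too. Ms4a1 (104173_at) was at 8.82 to 9.64 against 5.92 to 7.15 in T cells, and Cd79b at 7.53 to 8.80 against 5.38 to 5.97. Others lay near the T cells. Group means of Cd79a were 6.37 and 6.52 in NK cells against 5.92 to 6.33 in T cells, and of Ebf1 3.82 and 3.86 against 3.68 to 3.91. The part of B cell genes in the NK readings was not tested. The NK arrays had the largest Gapdh 3′ to 5′ differences, at a mean of 5.13 and 4.65.

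Between backgrounds, spleen leukocytes differed at a few kappa variable probe sets, of Igkv15-103 and Igkv14-111. In spleen, 3 of the 71 probe sets passed (1 higher in B6g7 and 2 lower), against 0.0725% of all probe sets, or 9 in the whole table. Their median difference was -0.01 (0.02 over all probe sets), and 13 members had an unadjusted p under 0.05 (18.3%, against 1.25% of all probe sets).

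Both Igkv15-103 probe sets were lower in B6g7. Probe set 101330_f_at was at 4.94 and 5.46 in B6g7 and 7.0 and 7.47 in NOD, a difference of -2.04 ± 0.24 (SE; limma adjusted p = 6.78e-04). Probe set 101329_f_at was at 6.37 and 6.71 against 8.18 and 8.79 (-1.95 ± 0.31 (SE), limma adjusted p = 0.0114), a call lost without B6g7 spleen array 1 (0.414) or 2 (0.0667) or NOD spleen array 2 (0.415). Igkv14-111 (96974_at) went the other way, at 6.70 and 6.77 in B6g7 and 5.14 and 5.61 in NOD, 1.36 ± 0.17 (SE) higher in B6g7 (limma adjusted p = 6.78e-04). The other Igkv14-111 probe sets differed by -0.03 (100682_f_at) and -0.01 (100683_r_at). Since 100683_r_at did not exceed the T cells in spleen, the disagreement of the segment's probe sets rests on 100682_f_at.

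Further members had no overlap between backgrounds in spleen without passing. Counting the 3 that passed, 10 members had both B6g7 arrays above both NOD arrays (14.1%, against 15.4% of all probe sets) and 16 had them below (22.5% against 10.6%). Igkv8-30 (96963_s_at) was at 8.09 and 8.45 in B6g7 and 6.13 and 6.35 in NOD (2.03 ± 0.48 (SE), limma adjusted p = 0.346). Its other probe set (96992_r_at) differed by -0.06, at a spleen mean of 4.15 near the T cell median of 4.10. The probe set for Igkv16-104 and Igk (101616_at) was at 7.57 and 7.46 against 6.62 and 6.61 (0.90 ± 0.21 (SE), limma adjusted p = 0.281). In RefSeq's order of the GRCm38.p6 assembly Igkv16-104 is the variable segment next to Igkv15-103, and 6 variable segments lie between Igkv14-111 and Igkv16-104. The lambda probe set 93638_s_at differed by 1.13 (limma adjusted p = 0.601) and Igha 97009_f_at by -1.03 (0.113).

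Among the B cell surface and receptor genes, Cd72 was higher in B6g7 by 5.6 in spleen and 2.71 in the infiltrate and Ly6d by 1.89 and 1.47, and no other gene of that list passed in either.

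In the infiltrates, none of the 71 probe sets differed between backgrounds, against 0.274% of all probe sets, and 3 had an unadjusted p under 0.05 (4.23%, against 4.19% of all probe sets), a share near the background. Their values are given for reference. The mean level of 11 NK cell markers was 6.49 to 6.99 in the B6g7 infiltrates and 5.64 to 6.31 in the NOD ones, and that of the B cell list 7.35 to 7.92 and 7.27 to 7.84; their part in the result was not tested. Igkv1-133 (99405_at) was at 4.59, 6.04 and 4.46 in B6g7 and 3.27, 3.82 and 3.32 in NOD, where T cells were at 2.98 to 3.73 (1.56 ± 0.33 (SE), limma adjusted p = 0.0581), and it passed without B6g7 infiltrate array 3 (1.84, adjusted p = 0.0334). Igkv4-68 (102076_at) was at 5.98, 6.24 and 5.53 against 4.90, 5.15 and 5.0 (0.90, limma adjusted p = 0.135). Igkv15-103 (101329_f_at) was at 4.54, 4.84 and 4.64 against 5.76, 5.83 and 5.23 (-0.93, limma adjusted p = 0.222), the same sign as in spleen. Against pancreatic T cells these 3 gave 1.73 (limma adjusted p = 0.0122) and 0.00 in B6g7 and NOD for Igkv1-133, 1.65 (6.02e-04) and 0.52 (0.273) for Igkv4-68, and 0.75 (0.217) and 1.17 (0.0123) for Igkv15-103. The same infiltrate arrays by which the 3 were picked enter here, so a call in 1 background only is no separate evidence of a background difference. The Igkv1-133 call in B6g7 was lost without pancreatic T cell array 1 (0.265), and the Igkv15-103 call in NOD without infiltrate array 1 (0.0733) or 2 (0.0654) or pancreatic T cell array 1 (0.0603).

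Whether the background difference itself differed between infiltrate and spleen was tested as an interaction, and 2 members passed against 0.0403% of all probe sets. For Igkv14-111 (96974_at) the interaction was -1.44 ± 0.22 (SE; limma adjusted p = 0.0185). For Igkv15-103 (101330_f_at) it was 2.0 ± 0.32 (SE; limma adjusted p = 0.0224). The infiltrate levels of both backgrounds, at 4.12 to 4.49 for 96974_at and 4.27 to 4.90 for 101330_f_at, lay near those of the T cells at 4.12 to 4.47 and 3.79 to 4.35. The interaction therefore cannot tell a lost background difference from a level too low to show it. For the other Igkv15-103 probe set, 101329_f_at, it was 1.01 and did not pass (limma adjusted p = 0.999). Without the infiltrate arrays with albumin RNA no member passed. Single arrays also ended these calls, namely spleen array 1 (adjusted p = 0.0958) or 2 (0.132) of B6g7, NOD spleen array 1 (0.225) or NOD infiltrate array 3 (0.0501) for Igkv14-111, and 8 of the 10 arrays in the comparison for Igkv15-103 (0.0590 to 0.317).

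**Figure D5:**
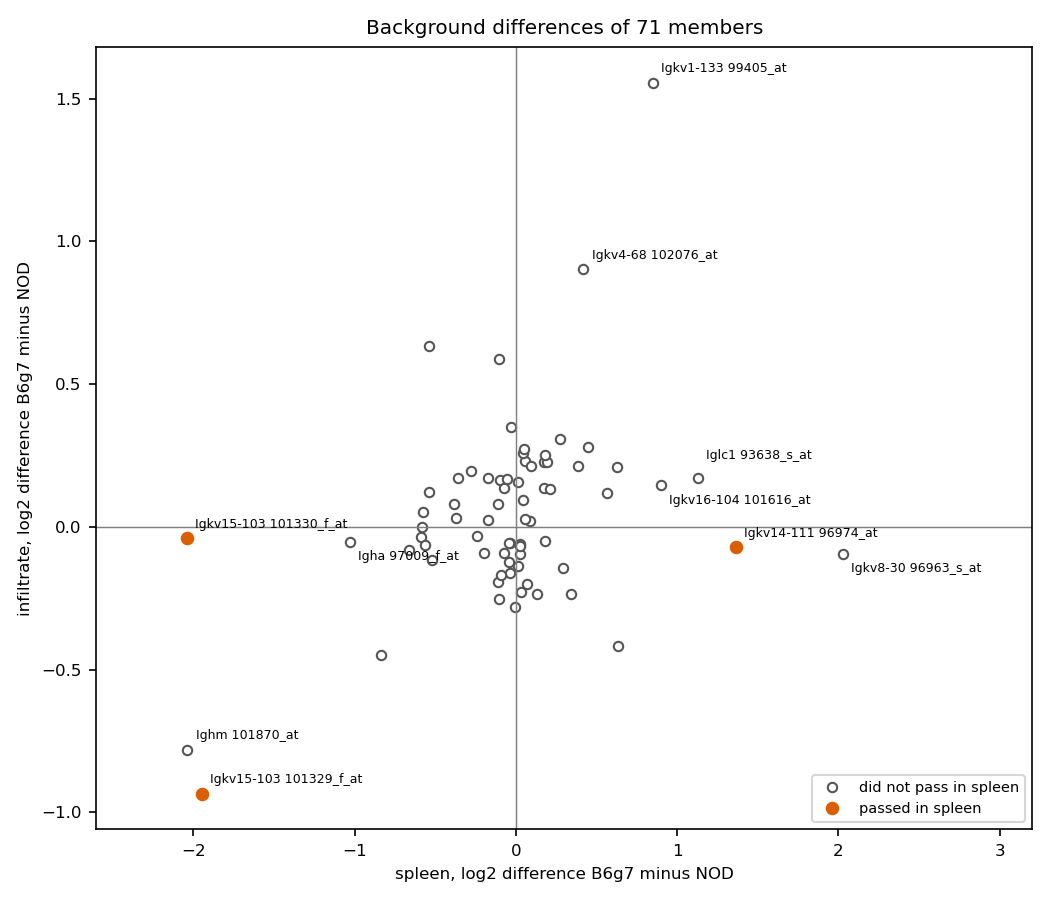
Log2 difference between backgrounds (B6g7 minus NOD) of the 71 probe sets in spleen (horizontal) and infiltrate (vertical), filled orange where the spleen difference passed. The filled points at -2.04 and 1.36 lie near 0 on the infiltrate axis, the third, Igkv15-103 (101329_f_at) at -1.95, lies lowest there at -0.93, and Igkv1-133 is the highest point in the infiltrate at 1.56.

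In sorted NK and T cells no member passed between backgrounds by limma, where 0.0483% of all probe sets passed in NK cells, 0.145% among pancreatic and 0.129% among node T cells. An unadjusted p under 0.05 was found for 2 members in NK cells (2.82%, against 1.26% of all probe sets), 2 in pancreatic T cells (2.82% against 6.44%) and 1 in node T cells (1.41% against 6.96%). In NK cells Igkv6-23 (102156_f_at) was at 7.88 and 8.06 in B6g7 and 9.85 and 9.04 in NOD (-1.48 ± 0.28 (SE), limma adjusted p = 0.0726), and it passed without NOD NK array 2, with 1 NOD array left (-1.88, adjusted p = 0.0341). Igha (100583_at) differed there by -2.31 (limma adjusted p = 1).

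Between pancreatic and node T cells no member passed in B6g7 (0% of all probe sets passed by limma; 0 members and 0.652% of all probe sets had an unadjusted p under 0.05) or in NOD (0.0161% passed; 4 members, or 5.63%, against 18.2% of all probe sets had an unadjusted p under 0.05). In NOD, Ighm 93584_at was at 7.49, 6.85 and 7.38 in the pancreas against 8.17, 8.04 and 7.98 in the node (-0.82, limma adjusted p = 0.114), while 93086_at was at 7.86, 7.95 and 6.81 against 6.74, 6.45 and 6.46 (0.99, limma adjusted p = 0.135). Without pancreatic T cell array 3 they passed, at -0.89 (0.0257) and 1.35 (0.00824).

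Some probe sets varied widely between arrays of 1 group. Of 710 pairs of a member and a group, 14 had a range over 1.5, and these came from 7 members, of Igha, Ighm, Ighv14-2, Igkv1-133 and the class with Igkc. Igha (100583_at) had the widest, at 6.83, 8.75 and 5.12 in the NOD infiltrate and 6.29, 8.26 and 4.89 in the B6g7 infiltrate, ranges of 3.63 and 3.37. Jchain was at 5.72, 7.94 and 6.40 and at 5.64, 7.74 and 5.47 in the same arrays, so that array 2 was highest for both genes on both backgrounds. In spleen Igha was at 8.23 and 9.21 in B6g7 and at 6.72 and 9.46 in NOD, with Jchain at 7.33 and 8.24 and at 8.19 and 9.32. Ighm 101870_at read 5.01 and 8.34 in B6g7 spleen and 4.26, 7.0 and 4.33 in the NOD infiltrate, and Ighm 99420_at 5.75, 7.76 and 5.25 in the latter. Ighm 93584_at did not follow this order, being at 10.63, 10.33 and 10.20 in those NOD infiltrate arrays.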

How the data were processed

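The deposited table holds the authors' processed intensity per probe set on a linear scale. RMA is named for 11 of 24 arrays, per the submitters' processing notes; for the others the sources used here do not give the summarisation. RMA was named for all B6g7 infiltrate arrays and no NOD infiltrate array, and for the NOD but not the B6g7 spleen arrays, so it cannot be told apart from background there. Among pancreatic T cells it was named for 3 NOD arrays and 0 B6g7 arrays. Within each background it therefore cannot be told apart from infiltrate against spleen or against pancreatic T cells, nor from the interaction. Intensities were taken to log2 with no pseudocount or filter, 66 control probe sets were left out, and 12422 were fitted with limma 3.58.1 in R 4.3.3 as 10 group means with 14 residual degrees of freedom and tested two-sided. The fit was tested on simulated data.

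Members and lists were chosen with earlier results of these data known. Probe set genes came from GEO's platform annotation. Every constant and joining region was named, with up to 6 rises and 6 falls per comparison among members that passed with groups that did not overlap, the 5 highest and 5 lowest variable probe sets in spleen, and fixed B cell and plasma cell genes, some of which are not reported here. Others are given by range and count, and members named beside these were chosen after their values were seen. Lists took 1 probe set per gene, the one with the highest mean. Same-numbered pancreatic and node T cell arrays deviated together in NOD (correlations 0.34, 0.36 and 0.29) and in B6g7 (0.79). The NOD arrays numbered 2 differ in age (24 days in the pancreas, 22 in the node). The numbers therefore do not establish pairs of the same animals, and the main fit used no pairing. The closing section gives the alternatives tried.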

Additional observations from a re-analysis of the deposited data

Results flagged for a closer look

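The interaction term of the limma fit, which asks whether the background difference was the same in infiltrate and spleen, passed for 2 immunoglobulin probe sets. For Igkv14-111 (96974_at) the B6g7 minus NOD difference was lower in the infiltrate by a log2 value of -1.435, and for Igkv15-103 (101330_f_at) it was higher by 1.9994. In each case the spleen arrays carried the difference (1.36 and -2.04) and the infiltrate levels lay near those of the T cells. At such levels a background difference could hardly show, so the term adds little to the spleen calls. For the other Igkv15-103 probe set, 101329_f_at, the term was 1.01 and did not pass (limma adjusted p = 0.999).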

How the results depend on the processing

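No count or named value changed direction under the alternatives run. The 0 calls between the infiltrates became 1 with quantile normalization, 1 with a trended robust prior, 3 with array weights and 1 with a replicate block (0 to 1 with single arrays left out). Infiltrate arrays of equal number were not taken as pairs either, since 1 of their 3 correlations was under 0.1. The 3 spleen calls became 1 without the dimmest 40% of probe sets, 7 with array weights and 5 with only the compared groups fitted (2 to 3 leaving out single arrays). The 2 interaction calls became 0 without the dimmest 40%, 0 with only the compared groups and 0 without the infiltrate arrays with albumin RNA (0 to 2 leaving out single arrays). Without the dimmest 40% of probe sets, which removes members from the test, the falls against spleen were 29 in B6g7 and 31 in NOD (42 to 44 and 43 to 47 leaving out single arrays). The rises over pancreatic T cells were 5 in B6g7 and 5 in NOD with only the compared groups, 5 in B6g7 without the infiltrate arrays with albumin RNA, and 4 without all arrays with albumin RNA, a setting chosen after seeing the data (8 to 19 and 12 to 16 leaving out single arrays). In NK cells array weights gave 1 call (0 to 1 leaving out single arrays), and between NOD pancreatic and node T cells leaving out single arrays gave 0 to 2. The other T cell comparisons kept 0 calls with any single array left out. With a replicate block the counts were 3 in spleen, 2 for the interaction, 43 and 46 against spleen, 19 and 16 over pancreatic T cells and 0 in the T and NK cell comparisons, so the block moved no other count by more than 1.5 times. Apart from the changes given, the cause was not tested. Runs of array serial codes were not tested in spleen, where all arrays fell in 1 run. With 2 or 3 arrays per group, the number of arrays limits the precision.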

Other observations

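The rule for immunoglobulin segments leaves out a few probe sets of these loci whose symbols are written otherwise. The probe set annotated with Igk and Asb2 (101633_at) was at 9.72 and 9.37 in B6g7 spleen and 8.21 and 8.52 in NOD spleen, with 6.12 to 6.80 in the infiltrates. Igh-VS107 (102152_f_at), a heavy variable gene, was at 6.47 to 7.16 in spleen.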
